A study of Mus musculus with 6 samples.

Results

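Transcript levels of 9 genes of interleukin 6 (IL-6) family signalling were followed in colorectal tissue of colitis mice given berberine (BBR) or sulfasalazine (SASP). The genes were found by symbol, and all 9 were present among 18268 genes of the deposited table. They were the ligand genes Il6, Il11, Osm and Lif, the receptor genes Il6ra, Osmr and Il6st, the transcription factor gene Stat3 and the feedback inhibitor gene Socs3. They were chosen with results of the BBR and SASP comparison already known, so their own values are given as a description, without p-values. The further gene lists used below were also chosen with earlier results of these data known. Their counts and adjusted p-values are therefore a description too.

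All 6 animals were adult male C57BL/6 mice. Each had drunk dextran sulfate sodium (DSS), a polymer that damages the gut lining and brings on colitis, over 7 days. For 6 days they were also gavaged with a drug, BBR (a plant alkaloid) in 3 mice and SASP (an aminosalicylate prodrug in clinical use for colitis) in the other 3. The doses of the drugs differed, and DSS was common to both groups. Mice without DSS and DSS mice without a drug were not analysed here, so each difference is one between the 2 drug groups. The paper speaks of rectal samples for its BBR sequencing and of colon samples for its SASP sequencing. A difference in gut segment or dissection between the groups was not tested and cannot be told apart from one between the drugs. Mice are numbered within a group by accession order, and the numbers pair no animals. Nothing in the labels says whether mice shared a cage or litter, and an error over 3 mice measures the spread between these samples only.

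Cytokines of the IL-6 family signal through the shared receptor chain gp130, encoded by Il6st. Each ligand brings gp130 together with a partner: IL-6 binds the receptor encoded by Il6ra, IL-11 that of Il11ra1, leukaemia inhibitory factor (Lif) that of Lifr, and oncostatin M (Osm) that of Osmr. Janus kinases on these receptors phosphorylate STAT3, which enters the nucleus and induces, among others, Socs3, whose product binds gp130 and shuts the signal off. In the colon the pathway acts in leukocytes, stromal cells and epithelium, where it is known for its part in inflammation and in regrowth of damaged crypts.

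The promoters of Socs3 and Il6 are shown because Socs3 varied most between the mice among the members detected in all of them, and Il6 gives the family its name. Both are RefSeq sequences of build GRCm38.p6, 250 bases before to 50 bases after the transcription start, read 5′ to 3′ on the strand of the gene. Promoters were found for 8 of the 9 members, and none for Osm. The Socs3 window is chr11:117969317-117969616 (minus strand), with the capitals marking a match to TTCNNNGAA, the core of STAT binding sites. The Il6 window is chr5:30012864-30013163 (plus strand), with the capitals marking a match to GGGANNTTC, a part of the NF-kB site chosen because this promoter is known to hold one.
Socs3: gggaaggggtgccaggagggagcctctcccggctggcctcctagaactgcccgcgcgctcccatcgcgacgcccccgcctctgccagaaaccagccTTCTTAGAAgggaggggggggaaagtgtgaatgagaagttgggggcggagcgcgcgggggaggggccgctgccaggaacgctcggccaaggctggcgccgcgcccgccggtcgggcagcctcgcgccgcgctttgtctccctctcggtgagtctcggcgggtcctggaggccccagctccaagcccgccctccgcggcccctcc
Il6: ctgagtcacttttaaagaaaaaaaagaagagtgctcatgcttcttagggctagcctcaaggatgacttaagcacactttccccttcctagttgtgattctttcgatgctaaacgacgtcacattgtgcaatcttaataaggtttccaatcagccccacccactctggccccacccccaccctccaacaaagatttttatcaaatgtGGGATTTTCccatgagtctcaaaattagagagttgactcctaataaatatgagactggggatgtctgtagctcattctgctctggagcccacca
The STAT core of Socs3 began 154 bases before the start, and the NF-kB sequence of Il6 began 44 bases before it. On either strand, the STAT core was present in 8.30% of 32851 promoter windows of this length and the NF-kB letters in 3.94%. Among the members with a promoter window, only Socs3 held the STAT core and only Il6 the NF-kB sequence. Osm was not scanned. The 2 motifs did not occur in the same member. A match of letters describes the sequence, and binding was not measured.

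Levels are FPKM, fragment counts scaled to transcript length and library size, as calculated by the authors. Differences are given as log2 fold changes of BBR minus SASP on log2(FPKM + 1), which understates changes of low genes. In a limma model over all genes with at least 1 FPKM in at least 3 samples, 12072 genes were tested and 1069 passed an adjusted p-value threshold of 0.05, which is 8.86%. Of these, 461 were higher and 608 lower with BBR. The split was 498 and 1186 with median-ratio scaling, which moved the median log2 fold change of all genes from 0.10 to -0.02, and 4636 and 2490 with array weights. Epithelium was present in all mice, as Epcam lay between 833 and 1101 FPKM and Krt8, an epithelial keratin, between 1852 and 2147 FPKM. These genes mark epithelium and do not identify the part of the gut. The 8 listed epithelial genes did not move together. Krt18 and Cdx2 passed the threshold as higher with BBR and Vil1 as lower. Krt20 missed it, but each BBR mouse lay below each SASP mouse. The median log2 fold change of the 8 was 0.058. The leukocyte gene Ptprc lay between 1.84 and 3.32 FPKM with BBR and between 2.67 and 6.80 FPKM with SASP. The sum of 6 leukocyte genes was 19.4 to 33.5 FPKM with BBR and 32.5 to 70.5 FPKM with SASP. Of these genes 6 of 6 had a log2 fold change below 0, against 4735 of 12072 over all tested genes. Their median was -0.74, and 0 passed the threshold. The part of leukocytes in the levels of the members was not tested. In bulk tissue, fewer cells of a type and less RNA per cell cannot be told apart. The estimated depth, in units of 1e6 reads, was 16.4 to 18.2, from which 1 read on the Il6 transcript is worth about 0.025 FPKM. BBR mouse 3 stood apart from its group. Its log2 values correlated with those of BBR mice 1 and 2 at 0.953 and 0.949 across genes, against 0.987 between the latter. With SASP mice 1, 2 and 3 they correlated at 0.920, 0.953 and 0.944. For 51.1% of all tested genes BBR mouse 3 was nearer to the SASP mean than to the mean of its group mates. Values without BBR mouse 3 are given for the genes described in full. Without this mouse 4018 of 11878 tested genes passed (33.8%).

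Of the 4 ligands, Il6, Il11 and Osm were close to the detection limit in both groups, and Lif was the exception. Il6 was at 0, 0 and 0.28 FPKM in BBR mice 1, 2 and 3 and at 0, 0.10 and 0 FPKM in SASP mice 1, 2 and 3. Il6 was therefore above 0 in 1 mouse of each group, and its highest value, in BBR mouse 3, stood for about 11 reads, with the longest annotated transcript of 2343 bases taken as its length. Differences in Il6 between the drugs were not detectable at this depth.

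Osm, a cytokine made mainly by myeloid cells and T cells, was at 0, 0.06 and 0.08 FPKM with BBR and at 0.08, 0.05 and 0.11 FPKM with SASP. The groups overlapped, and no mouse held more than about 4 reads. Il11, a cytokine of stromal cells, was at 0.34, 0.43 and 0.35 FPKM with BBR and at 0.35, 0.36 and 0.31 FPKM with SASP. Its values were the most even of the 9 genes, at 10 to 14 estimated reads in every mouse, and the group means of 0.373 ± 0.0493 and 0.340 ± 0.0265 FPKM (SD, n = 3 each) overlapped within their spread. These 3 genes lay below the filter of 1 FPKM and were not tested.

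Lif, which maintains stem cells in culture and acts on many tissues, was the ligand with the clearest separation. It was at 0.49, 0.79 and 0.69 FPKM with BBR and at 3.36, 2.08 and 3.91 FPKM with SASP. Each BBR mouse lay below each SASP mouse, and BBR mouse 3 lay between its group mates. The group means were 0.657 ± 0.153 and 3.12 ± 0.939 FPKM (SD, n = 3 each), a 4.75-fold higher level with SASP. The log2 fold change was -1.29 (SE 0.20), it was -1.31 without BBR mouse 3, and it ranged from -1.49 to -1.15 when single mice were left out. The estimated reads were 33 to 52 with BBR and 152 to 264 with SASP. Lif passed the filter on low values only through the SASP mice, so a gene with its BBR levels in all mice would not have been tested.

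**Figure D1:**
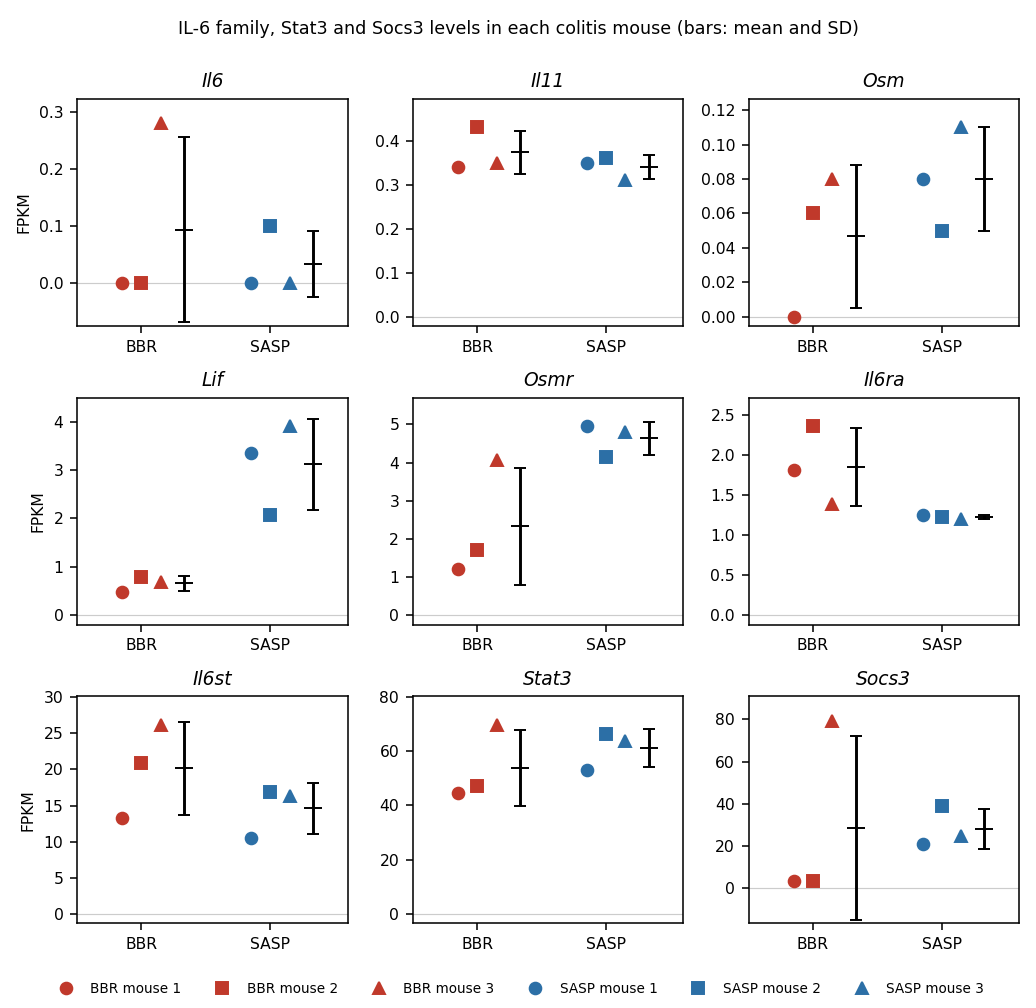
FPKM (vertical axes, linear, each panel with its own scale) of the 9 genes in the 3 BBR mice (red) and 3 SASP mice (blue); black bars show the group mean and SD. Lif is low in all BBR mice, at 0.49 to 0.79 FPKM against 2.08 to 3.91 FPKM, whereas the Socs3 values of the BBR group split into 3.52 and 3.38 FPKM for mice 1 and 2 and 79.08 FPKM for mouse 3.

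The receptor genes went in different directions. Osmr, the signalling partner of gp130 for oncostatin M, was at 1.21, 1.71 and 4.06 FPKM with BBR and at 4.96, 4.15 and 4.8 FPKM with SASP. BBR mice 1 and 2 were well below the SASP mice, while BBR mouse 3 was just under the lowest of them. The means were 2.33 ± 1.52 and 4.64 ± 0.429 FPKM (SD, n = 3 each), and the log2 fold change was -0.85 (SE 0.30). It was -1.20 without BBR mouse 3 and -0.60 without BBR mouse 1.

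Il6ra, the ligand-binding chain for IL-6, was at 1.81, 2.36 and 1.39 FPKM with BBR and at 1.25, 1.22 and 1.2 FPKM with SASP. All BBR mice lay above all SASP mice, and the SASP values were almost equal. The log2 fold change was 0.35 (SE 0.16), and it was 0.47 without BBR mouse 3.

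Il6st, which encodes gp130 itself, was far more abundant, at 13.33, 20.92 and 26.22 FPKM with BBR and at 10.51, 16.93 and 16.36 FPKM with SASP. The groups overlapped, and the means of 20.2 ± 6.48 and 14.6 ± 3.55 FPKM (SD, n = 3 each) differed by less than the sum of their SDs. Its log2 fold change of 0.42 (SE 0.27) was 0.21 without BBR mouse 3 and changed sign with array weights, to -0.14.

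Stat3 was the most abundant of the 9 genes, and its level varied little. It was at 44.47, 47.08 and 69.75 FPKM with BBR and at 53.07, 66.26 and 63.58 FPKM with SASP. BBR mice 1 and 2 were the lowest of the 6 and BBR mouse 3 the highest, so that the groups overlapped. The log2 fold change was -0.20 (SE 0.19), and it was -0.40 without BBR mouse 3. These are transcript levels, and phosphorylation of STAT3 was not analysed here.

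Socs3 showed the widest range of the members detected in every mouse. It was at 3.52, 3.38 and 79.08 FPKM with BBR and at 20.81, 38.97 and 24.74 FPKM with SASP. BBR mice 1 and 2 lay below all SASP mice, and BBR mouse 3 lay above all of them, at 22.5 times the higher of its group mates. The group means were thus alike, 28.7 ± 43.7 FPKM with BBR and 28.2 ± 9.55 FPKM with SASP (SD, n = 3 each), although no BBR mouse was near the BBR mean. The log2 fold change of -1.27 had an SE of 1.07, and it was -2.66 without BBR mouse 3 and -0.57 without BBR mouse 2. In BBR mice 1 and 2 the mean was 3.45 FPKM, and the SASP mean was 8.17 times as high.

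BBR mouse 3 also differed from its group mates in cell type markers. The summed FPKM of 8 smooth muscle genes was 6646 in this mouse against 2797 and 2891 in BBR mice 1 and 2 and 711 to 2232 in the SASP mice. Of 8 neutrophil genes, Ngp was at 0 in 5 mice and S100a8 at 0 in BBR mice 1 and 2. Their sum ranged from 192 to 568 FPKM with BBR and from 357 to 537 FPKM with SASP, and most of it was Ly6g, at 190 FPKM or more. Without Ly6g, which was set aside after its values were seen, the sum was 2.2 and 2.27 FPKM in BBR mice 1 and 2, 15.7 FPKM in BBR mouse 3 and 28.6 to 37.3 FPKM in the SASP mice. In BBR mouse 3 and the SASP mice most of that remainder was S100a8 and S100a9. In each of BBR mice 1 and 2, S100a8 was at 0 FPKM and S100a9 at 0.11 FPKM. The list did not move together. Cxcr2 was at 1.36, 0.89 and 1.8 FPKM with BBR and at 1.26, 1.34 and 0.85 FPKM with SASP. The mean of Retnlg was 0.253 FPKM with BBR and 0.15 FPKM with SASP. The sum of 9 monocyte and macrophage genes was 106 to 134 FPKM with BBR, lowest in BBR mouse 3, and 197 to 231 FPKM with SASP. That gap came from Cd14 (means of 24.8 and 92.0 FPKM) and Lyz2 (76.9 and 105 FPKM), whereas the means of Csf1r (4.31 and 3.78 FPKM) and Mrc1 (2.83 and 1.87 FPKM) were higher with BBR, and 3 of the 7 tested genes had a log2 fold change above 0 and 4 below, with a median of -0.05.

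Stromal markers also differed between the drugs. The sum of 8 fibroblast genes was 270 to 361 FPKM with BBR and 122 to 215 FPKM with SASP, with 8 of 8 log2 fold changes above 0, 4 of them past the threshold, and a median of 0.82. The sum of 6 endothelial genes was 15.3 to 28.3 FPKM with BBR and 7.58 to 10.9 FPKM with SASP, with 5 of 5 tested genes above 0, 1 of them past the threshold, and a median of 0.69. Over all tested genes, 7337 of 12072 log2 fold changes were above 0, 3.82% were called higher and the median was 0.10. Neither sum overlapped between the groups, and neither did the values of 37.9% of single tested genes. The part of any of these cells in the levels of Lif, Osmr, Il6ra, Il6st and Socs3, or of the receptor genes Il11ra1 and Lifr, was not tested.

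**Figure D2:**
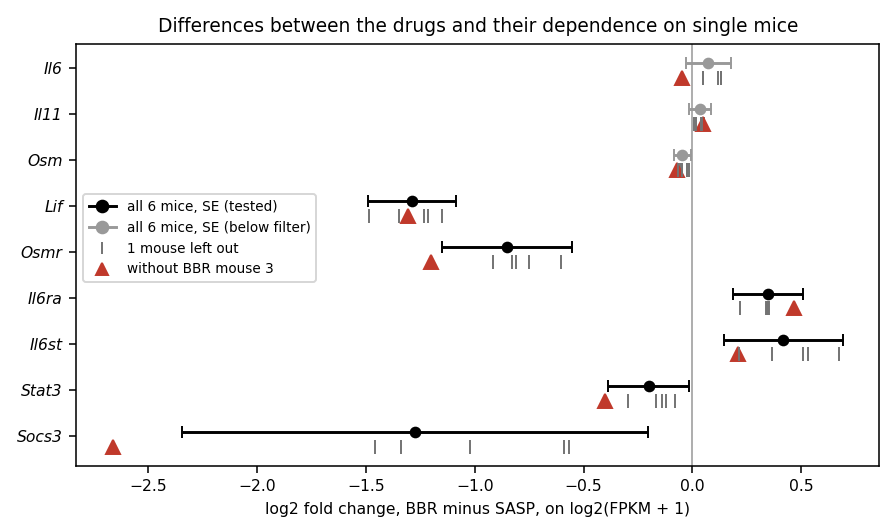
Log2 fold change of BBR minus SASP on log2(FPKM + 1) for each gene, with circles and bars for all 6 mice and the SE (grey, from the fit with no filter, where the gene was below it), ticks for fits with 1 mouse left out, and red triangles for the fit without BBR mouse 3. The ticks of Lif stay between -1.49 and -1.15, whereas Socs3 runs from -2.66 to -0.57.

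Of the 9 members, 6 passed the filter. Of these, 1 was among the genes past the threshold, Lif, as lower with BBR, where 5.04% of all tested genes were called lower and 3.82% higher. The groups did not overlap for 3 of the 6, with Lif and Osmr lower and Il6ra higher in BBR, and for 37.9% of all tested genes (16.6% lower and 21.3% higher). Without BBR mouse 3, 4 of the 6 were called, all lower, where 11.5% of all tested genes were called lower. Since the members were chosen on this contrast, and Lif passed the filter only through the SASP mice, nothing is read from these counts. BBR mouse 3 had the highest value of all mice for Il6st, Stat3 and Socs3, and for 14.0% of all tested genes.

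By level per length over the 6 mice, Stat3 (57.4 ± 10.6 FPKM; SD, n = 6) was followed by Socs3 (28.4 ± 28.3), Il6st (17.4 ± 5.58), Osmr (3.48 ± 1.61), Lif (1.89 ± 1.48), Il6ra (1.54 ± 0.463), Il11 (0.357 ± 0.0398), and Il6 and Osm (both 0.0633). Values of Stat3, Socs3 and Il6st overlapped between neighbours in this order. So did those of Osmr, Lif and Il6ra, whereas the ranges of Il6st and Osmr, of Il6ra and Il11, and of Il11 and Il6 did not touch. Stat3 stood at the 92nd percentile of all listed genes by mean FPKM and Il6 at the 13th.

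Ratios of FPKM within a mouse, chosen after the values were seen, set pairs of pathway genes against each other. The Il6ra level was 1.5 and 1.38 times that of Osmr in BBR mice 1 and 2, but 0.342 times in BBR mouse 3 and 0.250 to 0.294 times in the SASP mice. Thus Il6ra exceeded Osmr in 2 of the 6 mice. The Lif level was 0.0641, 0.0902 and 0.292 times that of Lifr, the receptor gene for Lif, in BBR mice 1, 2 and 3 and 0.916 to 2.51 times in the SASP mice. Every BBR mouse was lower in Lif and higher in Lifr than every SASP mouse, so this ratio could not overlap. Socs3 was at 0.0792 and 0.0718 times the Stat3 level in BBR mice 1 and 2, at 1.13 times in BBR mouse 3 and at 0.389 to 0.588 times with SASP. The highest value over the lowest was 1.57 for Stat3 and 23.4 for Socs3. Dividing by Stat3 could therefore not remove the split of the BBR group in Socs3.

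**Figure D3:**
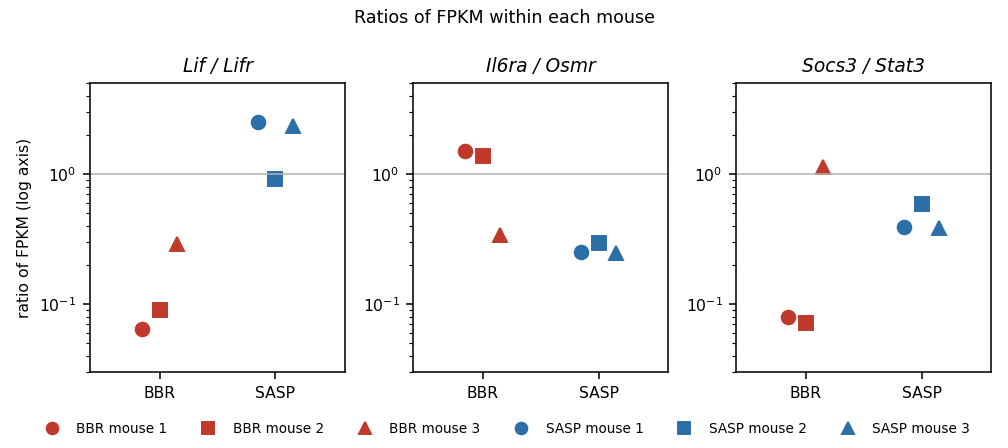
Ratio of FPKM (vertical axes, log scale) of Lif to Lifr, Il6ra to Osmr and Socs3 to Stat3 in each BBR mouse (red) and SASP mouse (blue), with the line at a ratio of 1. The Lif to Lifr ratio is at most 0.292 with BBR and at least 0.916 with SASP, a gap fixed by the values of Lif and Lifr alone. BBR mouse 3 lies above BBR mice 1 and 2 for Lif to Lifr, at 0.292 against 0.0641 and 0.0902. It also lies away from them for the other ratios.

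Other ligands and receptors of the family were mostly too low to be tested. Of 13 listed genes, 12 were present and 3 reached the filter, of which 1 was called higher and 0 lower with BBR, where 3.82% of all tested genes were called higher. Their median log2 fold change was 0.64, against 0.10 for all tested genes. Il11ra1, the receptor for IL-11, was at 17.33, 24.02 and 20.92 FPKM with BBR and at 12.03, 12.33 and 14.25 FPKM with SASP. It rose by 0.64 on the log2 scale (SE 0.14, limma adjusted p = 0.0424), with all BBR mice above all SASP mice, and by 0.63 without BBR mouse 3. Fibroblast, endothelial and smooth muscle marker sums were higher in the same mice. The call held in 8 of 14 alternatives, and was lost with no filter and without any mouse other than BBR mouse 3. The mouse genome holds near-identical copies of this gene, so the division of reads among them is uncertain.

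Lifr was at 7.65, 8.76 and 2.36 FPKM with BBR and at 1.34, 2.27 and 1.67 FPKM with SASP. BBR mice 1 and 2 were high, BBR mouse 3 was next to the highest SASP mouse, and the groups did not overlap, as for 37.9% of all tested genes. The fibroblast, endothelial and smooth muscle sums did not overlap either. In BBR mouse 3 the fibroblast sum was 273 FPKM, against 270 and 361 FPKM in BBR mice 1 and 2. Its endothelial sum was 15.3 FPKM, against 17.4 and 28.3 FPKM, and its smooth muscle sum 6646 FPKM, against 2797 and 2891 FPKM. The part of these cells in the level of Lifr was not tested. The log2 fold change of Lifr, 1.27 (SE 0.40), missed the threshold (limma adjusted p = 0.0853). Lifr passed at 1.75 without BBR mouse 3 (limma adjusted p = 0.00228) and with array weights. Cntf, a neurotrophic ligand of the family, had a log2 fold change of 0.35 (adjusted p = 0.283). Il27, Ebi3, Clcf1, Ctf1, Ctf2, Cntfr, Il27ra and Il31ra lay below the filter, between 0 and 1.85 FPKM.

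Genes that carry or dampen the signal were tested in full, 16 of 16, of which 1 passed as higher and 1 as lower, where 3.82% of all tested genes were called higher and 5.04% lower. Their median log2 fold change was 0.18. Socs1, an inhibitor of Janus kinases that is induced by interferons, was at 2.49, 1.71 and 5.97 FPKM with BBR and at 40.14, 19.53 and 34.45 FPKM with SASP. It fell by 2.94 on the log2 scale (SE 0.40, limma adjusted p = 0.0132), and the log2 fold change was -3.34 without BBR mouse 3, which stayed with its group, unlike in Socs3. The call was lost without BBR mouse 1, SASP mouse 1 or SASP mouse 3.

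Socs2, an inhibitor best known from growth hormone signalling, went the other way. It was at 12.67, 16.91 and 8.67 FPKM with BBR and at 3.18, 4.48 and 4.85 FPKM with SASP, a rise of 1.38 (SE 0.25, limma adjusted p = 0.0247) that held in 9 of 14 alternatives and was lost without any mouse other than BBR mouse 3. Without BBR mouse 3 it was 1.61. The kinase genes Jak1, Jak2 and Tyk2 had log2 fold changes of 0.16, 0.20 and 0.26 (adjusted p = 0.314, 0.243 and 0.179). The phosphatase genes Ptpn11, Ptpn2 and Ptpn6 had log2 fold changes of 0.24, -0.47 and -0.19 (adjusted p = 0.200, 0.153 and 0.590). The adaptor genes Gab1, Grb2 and Shc1 had log2 fold changes of 0.96, -0.00025 and 0.20 (adjusted p = 0.0823, 0.999 and 0.199), and the STAT inhibitors Pias1 and Pias3 of 0.036 and 0.68 (adjusted p = 0.847 and 0.126). Adam10 and Adam17, proteases that release the soluble IL-6 receptor, had log2 fold changes of -0.24 and -0.15 (adjusted p = 0.231 and 0.380), and Cish one of 0.90 (adjusted p = 0.130). Without BBR mouse 3, 5 of the 16 passed as higher and 3 as lower, where 22.3% of all tested genes were called higher and 11.5% lower. Beside Socs2 and Socs1 these were Tyk2 (0.33), Gab1 (1.33), Pias3 (0.98) and Cish (1.29) as higher and Ptpn2 (-0.69) and Adam10 (-0.35) as lower, by log2 fold change (limma adjusted p from 0.00151 for Gab1 to 0.0362 for Tyk2).

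Genes known to respond to STAT3 were examined as the downstream side of the pathway. Of 30 listed, 25 were tested, of which 0 passed as higher and 5 as lower, where 5.04% of all tested genes were called lower. The median log2 fold change was -0.34, against 0.10 for all tested genes, and it was -0.67 without BBR mouse 3. Below 0 were 17 of the 25, against 4735 of 12072 over all tested genes. The 5 were Ccnd1, Icam1, Myc, Tnfrsf1a and Pim1, which encode a cyclin, an adhesion molecule, a growth factor-induced transcription factor, a TNF receptor and a survival kinase. Each of them also responds to other pathways. As the list was chosen with earlier results of these data known, nothing is read from its counts.

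Ccnd1 was at 11.07, 12.23 and 8.65 FPKM with BBR and at 34.85, 41.34 and 41.73 FPKM with SASP. It fell by 1.80 on the log2 scale (SE 0.15, limma adjusted p = 0.00245). Icam1 was at 1.80, 2.25 and 2.21 FPKM with BBR and at 9.24, 7.23 and 8.34 FPKM with SASP, and it fell by 1.58 (SE 0.14, limma adjusted p = 0.00341). Without BBR mouse 3 they fell by 1.67 and 1.61. Both held in all 14 alternatives, with BBR mouse 3 inside or below the range of its group mates. Myc, Tnfrsf1a and Pim1 fell by 0.87, 0.94 and 0.97 (limma adjusted p = 0.0230, 0.0242 and 0.0393), and by 0.90, 1.02 and 1.03 without BBR mouse 3. The call of Myc was lost without any mouse other than BBR mouse 3, and those of Tnfrsf1a and Pim1 when any mouse was left out except BBR mouse 3 and SASP mouse 2. That of Pim1 was also lost with no filter.

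The largest differences that missed the threshold were those of Lrg1, Saa3 and Il4ra. Lrg1, a secreted glycoprotein of the acute phase, was at 1.13, 1.37 and 5.32 FPKM with BBR and at 16.48, 55.49 and 6.32 FPKM with SASP (log2 fold change -2.61, limma adjusted p = 0.0716). Saa3, a serum amyloid gene, was at 1.22, 0.24 and 5.93 FPKM with BBR and at 10.97, 7.87 and 12.90 FPKM with SASP (-2.09, adjusted p = 0.0657), and Il4ra had a log2 fold change of -1.07 (adjusted p = 0.0590). In all 3, BBR mouse 3 lay between its group mates and the SASP mice. Without it all 3 passed, with log2 fold changes of -3.11, -2.78 and -1.41, and 14 of the 25 tested genes of the list passed as lower and 1 as higher, where 11.5% of all tested genes were called lower and 22.3% higher.

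BBR mouse 3 had the highest value of the 6 mice in 11 of the 25 tested STAT3-responsive genes, and in 14.0% of all tested genes. Among them were Cebpd, at 58.69 FPKM against 17.29 to 35.18 in the other mice, Bcl3, at 41.93 against 16.07 to 26.38, and Nfkbiz, at 60.44 against 17.45 to 48.60. Cebpd and Nfkbiz encode factors induced early in the acute phase, and Bcl3 a nuclear partner of NF-kB. Their order was thus like that of Socs3 at the top, but BBR mice 1 and 2 were not both the lowest for Bcl3. Fosl1, below the filter, was at 1.48 FPKM in BBR mouse 3 and at 0.07 to 0.11 FPKM in the other mice. It was identified after its values were seen.

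**Figure D4:**
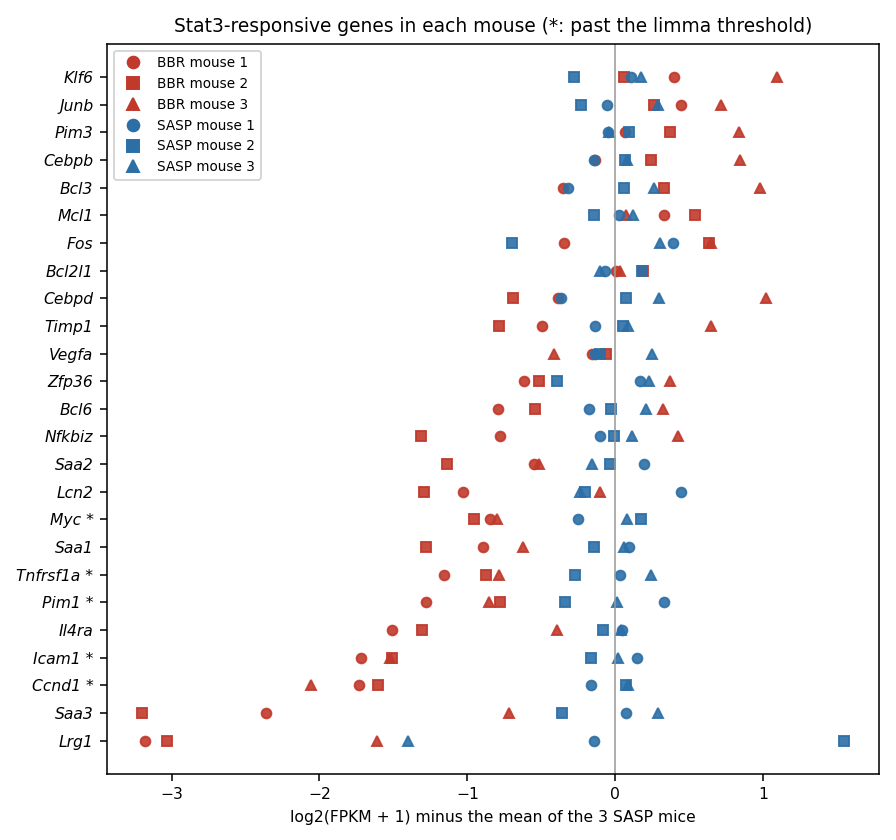
Level of the 25 tested STAT3-responsive genes in each mouse as log2(FPKM + 1) minus the mean of the 3 SASP mice (horizontal axis), BBR mice in red and SASP mice in blue, genes ordered by log2 fold change; stars mark the 5 past the limma threshold. BBR mouse 3 (red triangles) lies to the right of BBR mice 1 and 2 for genes such as Cebpd, Bcl3 and Nfkbiz, and with them for Myc, Icam1 and Ccnd1.

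Genes with a profile like that of a member were ranked by the root mean square difference of log2(FPKM + 1) over the 6 mice, after each gene was centred on its own mean. Nearest to Socs3, whose log2 values spanned 4.19, were Tifa (0.27), Dhrs9 (0.30), Tac1 (0.35) and Mfsd2a (0.37). Tifa, an adaptor of NF-kB signalling, was at 12.76, 13.36 and 172 FPKM with BBR and at 72.81, 92.33 and 89.44 FPKM with SASP. It thus shared with Socs3 the low values of BBR mice 1 and 2 and the peak in BBR mouse 3. Among the nearest to Stat3 were Xbp1 (0.065), Nus1 (0.081) and Nab1 (0.084). Xbp1, a transcription factor of the unfolded protein response, was at 72.84, 71.85 and 120.57 FPKM with BBR and at 91.45, 113.31 and 102.19 FPKM with SASP. For Il6 and Osm, which hardly varied on this scale, the nearest genes were Rab27a, Dctn3, Mrpl39 and Ubxn2a (0.019 to 0.024) and Zfp800, Dynlrb1, Mob4 and Ppp1r11 (0.014 to 0.023), all genes whose levels also varied little.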

How the data were processed

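Colorectal RNA of 3 BBR and 3 SASP mice was sequenced. According to the study's methods ribosomal RNA was depleted and single-end reads were filtered with SOAPnuke. The submitters' processing notes name Bowtie2 2.2.5, RSEM 1.2.12 and build mm9; the labels name an Illumina kit and the methods a BGISEQ instrument. The deposited values are FPKM per gene, computed by the authors with RSEM and rounded to 2 decimals. Read totals were not analysed here, so depth was estimated from genes seen in 1 sample, taken as 1 read, with GENCODE M21 transcripts under 1500 bases. That estimate is approximate.

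Groups came from the treatment labels. FPKM were transformed as log2(FPKM + 1) and compared with limma 3.58.1 (R 4.3.3; linear model, empirical Bayes with trend, two-sided, Benjamini-Hochberg over all genes tested), after a test on simulated data. The members and lists were chosen with earlier results of these data known. Named were the members, all listed family and signal genes, STAT3-responsive genes past the threshold with the 3 largest others, and the 4 nearest profiles of Il6, Osm, Stat3 and Socs3, of which some items are not reported here. Alternatives changed the pseudocount, filter, scaling, trend, weights and mice.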

Additional observations from a re-analysis of the deposited data

How the results depend on the processing

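No paired analysis was possible because the labels give the groups no shared replicate numbers. Over all genes, 1069 calls became 608 with no filter, 1737 with quantile normalization, 1684 with median-ratio scaling and 7126 with array weights, and 51 (without SASP mouse 3) to 4018 (without BBR mouse 3) with single mice left out. Family partners had 1 call, then 0 with no filter, 2 with array weights and 0 to 2 with mice left out. Signal genes had 2, then 11 with array weights and 0 to 8. STAT3-responsive genes had 5, then 18 with array weights and 2 to 15. Among the fits with 1 mouse left out, the highest count came without BBR mouse 3 each time, and the cause was not tested. With pseudocounts of 0.1 and 0.01 the log2 fold changes were -2.06 and -2.21 for Lif, 0.53 and 0.56 for Il6ra, 0.31 and 0.47 for Il6, 0.10 and 0.13 for Il11, and -0.33 and -1.12 for Osm, as less of a low value is masked. With array weights they were -1.59 for Lif, -1.32 for Osmr and -0.14 for Il6st. Lif, Osmr, Il6ra, Stat3 and Socs3 kept their direction in all alternatives run. Il6 changed sign without BBR mouse 3 and Il6st with array weights. Without any 1 SASP mouse Lif fell below the filter, and its value was then taken from the log2 means. With a mean of at least 5 FPKM required, Lif, Osmr, Il6ra and the 3 lower ligands gave no value. Depth limits Il6, Osm and Il11, which rest on a few reads.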
